A study of Mus musculus with 4 samples.

Results

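The genes described here are Prkg1 and Prkg2, which encode the mouse cGMP-dependent protein kinases, and the feature measured at them is dimethylation of lysine K36 of histone H3 (H3K36me2). Their members are the peaks lying in either gene or at most 100 kb from it, 9 of 7699 peaks in the melatonin list and 23 of 8361 in the untreated list, or 32 of 16060 in all. The genes were chosen by their peaks in these same lists, so the counts below are a description and carry no test. The cells were bone marrow MSCs (mesenchymal stem cells) of the mouse, which either received 1 µM melatonin over 24 hours or were left untreated. Both were grown in DMEM with serum, and both ChIP libraries were made with an antibody to H3K36me2 and compared with an input library of the same condition. Melatonin is the hormone of the pineal gland, and MSCs are stromal cells that can form bone, cartilage and fat. The series' design text speaks of old donors, but the sample labels give no age, strain, sex or number of animals. Each condition had 1 ChIP library, of 14180076.5 tags with melatonin and 13198427.5 untreated, so no difference between conditions has a replicate check. The files hold peak positions and no expression, so the cell type label was not tested against markers.

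Cyclic GMP is made by guanylyl cyclases, which respond to nitric oxide or to natriuretic peptides, and phosphodiesterases break it down. The type I kinase, from Prkg1, is made in an alpha and a beta form that differ in their N-terminal part because of alternative first exons, and it is best known for relaxing smooth muscle. The type II kinase, from Prkg2, is anchored to membranes and is needed in rodents for normal growth of the cartilage plates of long bones. H3K36me2 is written by enzymes that include NSD1 and NSD2 and is typically spread over broad stretches between and within genes.

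Prkg1 lies on the minus strand of chromosome 19, from 30564487 to 31765268 in GRCm38, and spans 1201 kb. Among 21631 protein-coding genes on the autosomes and X, 32 were longer. RefSeq's GRCm38.p6 promoter table gives Prkg1 a pair of transcription starts 101 kb apart, at 31765033 and 31664370. Their windows of 250 bases before to 50 bases after the start are shown because the positions of the peaks are measured from them, 5′ to 3′ on the minus strand, with each CG dinucleotide in capitals. The upstream window is chr19:31764984-31765283 and the downstream one is chr19:31664321-31664620.
Upstream start: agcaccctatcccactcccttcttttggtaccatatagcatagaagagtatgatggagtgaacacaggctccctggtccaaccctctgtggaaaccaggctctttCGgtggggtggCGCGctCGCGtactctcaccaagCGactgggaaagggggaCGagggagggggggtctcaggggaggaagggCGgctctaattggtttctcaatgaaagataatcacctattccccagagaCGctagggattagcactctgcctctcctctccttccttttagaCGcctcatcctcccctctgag
Downstream start: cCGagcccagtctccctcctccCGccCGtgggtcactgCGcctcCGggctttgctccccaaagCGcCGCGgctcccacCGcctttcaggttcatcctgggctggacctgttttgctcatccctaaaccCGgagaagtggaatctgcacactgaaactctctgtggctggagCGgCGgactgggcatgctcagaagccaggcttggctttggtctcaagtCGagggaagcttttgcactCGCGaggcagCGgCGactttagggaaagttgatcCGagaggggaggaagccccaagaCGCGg

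The windows differed in their CG content. The upstream window held 10 CG dinucleotides and was 55.3% G or C, and the downstream window held 20 and was 62.3% G or C. Over 32851 RefSeq promoter windows of the same length, the median was 7 CG dinucleotides and 52.7% G or C, and 43.5% held at least 10 and 26.5% at least 20. Searched on both strands, the letters GGGCGG occurred 1 time in each window, as they did at least once in 35.7% of all windows, and each match includes 1 of the CG dinucleotides counted above. The letters CCAAT occurred 1 time in the upstream window, from base 196 on the opposite strand, against 37.4% of all windows with a match, and not in the downstream one. The letters TATAAA occurred in neither window and in 13.6% of all windows. Prkg2 has no entry in that table.

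H3K36me2 peaks were spread along Prkg1 in both libraries and were fewer with melatonin. The melatonin list had 9 peaks in Prkg1 and its 100 kb flanks (95% Poisson interval 4.12 to 17.1), against 21 in the untreated list (13 to 32.1). In the gene body alone there were 7 with melatonin (2.81 to 14.4) and 19 untreated (11.4 to 29.7). These intervals cover counting error only, take peaks as independent and say nothing of the spread between cultures. A peak missing from a list is a region that did not pass the caller, not one shown to lack the mark, and the lists give no tags of one library at the other's peaks.

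**Figure D1:**
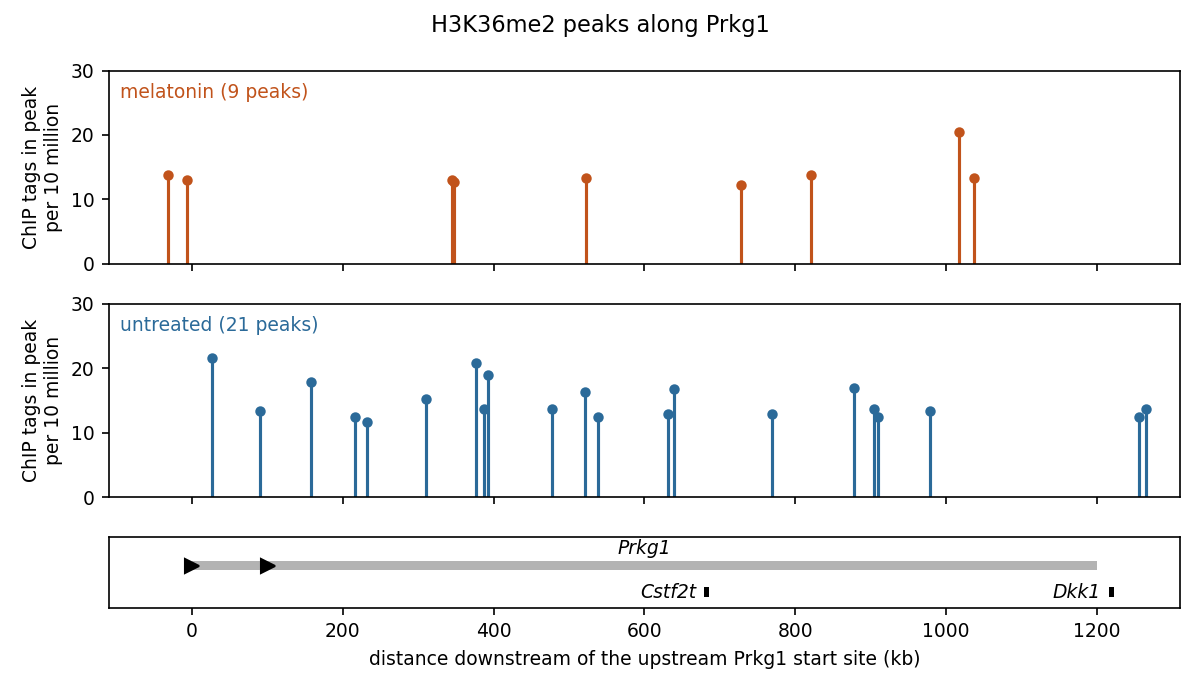
Peaks in and around Prkg1, drawn in the direction of transcription, with the distance in kb from the upstream start on the x axis and the normalized ChIP tags in each peak (per 10000000 total tags) on the y axis. The 9 melatonin peaks leave the first 300 kb of the gene empty, where 5 of the 21 untreated peaks lie, and the lowest panel shows Prkg1 as a grey bar, its pair of starts as arrowheads, and Cstf2t and Dkk1 in black, drawn slightly wider than to scale.

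The libraries differed most in the part of the gene nearest its 5′ end, but only narrowly more than in the next part. With the body cut into 4 equal parts from the 5′ end and peaks placed by their midpoints, the first part held 0 melatonin and 5 untreated peaks, the second 3 and 7, the third 2 and 4, and the last 2 and 3. Every part therefore had more untreated peaks, by 1 to 5. The flanks did not share one direction. Above the gene, upstream of both starts, there were 2 peaks with melatonin and 0 untreated, and below it, past the 3′ end, 0 with melatonin and 2 untreated.

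No peak of either library covered a Prkg1 start. The nearest melatonin peak to the upstream start lay 6.21 kb upstream of it, at 31771245 to 31772245, and the next at 31796394 to 31797394. The nearest untreated peak to that start lay 25.1 kb downstream, at 31738423 to 31739948. For the downstream start, the nearest melatonin peak was the same one, 107 kb upstream, and the nearest untreated peak lay 10.4 kb upstream, at 31674774 to 31675774. The stretch between the starts thus held 2 untreated peaks and no melatonin peak. Within 50 kb of the upstream start there were 2 melatonin peaks and 1 untreated peak, and within 50 kb of the downstream start 0 and 1, so the starts did not share one direction.

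The melatonin peak of Prkg1 with most tags lay in its 3′ part and was the only one of the 9 wider than 1000 bp. It ran over 1538 bp, from 30746483 to 30748021, which is 1017.8 kb downstream of the upstream start by its midpoint. It held 20.5 normalized ChIP tags, which are the authors' count per 10000000 total tags, and 2.84 input tags on the same scale. Its fold over input in the authors' list was 7.2, at a Poisson p of 8.98e-14. By ChIP tags it stood at rank 392 of the 7699 melatonin peaks. A wider region can hold more tags, and per kb this peak held 13.3, within the range of the other 8. The other 8 peaks, all 1000 bp wide, had 12.3 to 13.8 normalized ChIP tags, near the list's median of 13.4. The next 4 by tags were those at 30943638 to 30944638 (13.8 tags, fold 4.24), 31796394 to 31797394 (13.8 tags, fold 5.65), 30727732 to 30728732 (13.4 tags, fold 5.51) and 31242290 to 31243290 (13.4 tags, fold 5.51). A close pair, at 31416880 to 31417880 and 31419542 to 31420542, was separated by 1.66 kb, and the last peak, at 31036259 to 31037259, had the fewest normalized tags, 12.3.

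The untreated peaks with most tags lay in several parts of the gene. The first by tags, at 31738423 to 31739948, lay between the starts and held 21.6 normalized ChIP and 5 normalized input tags, with a fold of 4.3 and a p of 5.66e-10 in the authors' list, at rank 387 of 8361. The next, at 31387208 to 31388760, held 20.8 ChIP and 2.95 input tags (fold 7.05, p = 1.98e-14 in the authors' list). It stood beside the peaks at 31371756 to 31373163 (18.9 tags, fold 4.93) and 31377100 to 31378100 (13.6 tags, fold 5.77), with gaps of 3.94 and 9.11 kb between the 3. The peaks at 31606935 to 31607935 (17.8 tags, fold 4.3) and 30886373 to 30887373 (17 tags, fold 4.12) completed the 5 with most tags. Unlike the wide regions, both of these were 1000 bp windows, and they had the most input of the 21 per kb, 4.17 normalized tags. Per kb they also held the most ChIP tags, 17.8 and 17. The first by tags held 14.2 per kb and the next 13.4. The highest fold of the locus, 10.9, belonged to a peak of 12.9 normalized ChIP tags, below the list's median of 13.6, at 30995154 to 30996154, with 1.21 normalized input tags, the fewest of the 21. Of the 21 untreated peaks, 5 were wider than 1000 bp, against 1 of 9 with melatonin. In the whole lists 79.6% of untreated and 79.2% of melatonin peaks were 1000 bp wide, and counts this small are near those shares.

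The Prkg1 peaks of one library did not overlap those of the other. With melatonin, 0 of 9 overlapped an untreated peak (95% Wilson interval 0 to 29.9%), where 6.12% of the whole melatonin list did. Of the untreated peaks, 0 of 21 overlapped a melatonin peak (0 to 15.5%), where 5.6% of that list did. Both intervals include the share of the whole list. The closest approach was in the middle of the gene, where the melatonin peak at 31242290 to 31243290 ended 353 bp before the untreated peak at 31243643 to 31244903. This untreated peak was 1260 bp wide and held 16.3 normalized ChIP and 2.95 normalized input tags (fold 5.51), and the melatonin peak held 13.4 and 2.43 (fold 5.51). No other pair lay within 5 kb of each other. The distance from a melatonin peak to the nearest untreated one had a median of 37.8 kb and a maximum of 57.1 kb, and from an untreated peak to the nearest melatonin one a median of 56.3 kb and a maximum of 163 kb.

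Spacing within each library followed the number of peaks. The 7 melatonin peaks in the body had gaps of 1.66 to 205 kb with a median of 133 kb, and the 19 untreated peaks had gaps of 3.94 to 129 kb with a median of 59.8 kb. The widest melatonin gap ran from 31037259 to 31242290, and the widest untreated gap from 30996154 to 31124799, so that these gaps share the stretch that holds Cstf2t. Over chromosome 19, neighbouring peaks were a median of 69.4 kb apart with melatonin and 86.8 kb untreated. Gaps under 10 kb numbered 1 with melatonin and 4 untreated. With both lists merged, the 26 peaks in the body lay a median of 37.8 kb apart, and no stretch between them exceeded 91.9 kb.

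The tag counts behind these calls were small and close to the caller's limits. By the caller's estimate, 1.12% of the melatonin tags and 1.24% of the untreated tags lay in peaks. Before filtering it had 50208 putative peaks with melatonin and 60771 untreated. How far either bears on the counts at Prkg1 was not tested. With melatonin a window needed 18 tags, or 12.7 normalized tags, and without it 17 tags, or 12.9 normalized tags. The melatonin peaks of Prkg1 held 17.5 to 29 tags before scaling, with a median of 19, and the untreated ones 15.5 to 28.5, with a median of 18. The lowest of these region counts lay under the window limit, while the authors' findPeaks score, the caller's own tag value for a region, lay between 18 and 20 for the melatonin peaks and between 17 and 23.5 for the untreated ones. Within 2 tags of the limit were 8 of 9 melatonin peaks and 13 of 21 untreated peaks, against 64.8% and 64.5% of the whole lists. The authors' fold, which had to reach 4, ran from 4.02 to 7.2 with melatonin (median 5.36) and from 4.08 to 10.9 untreated (median 4.7). The list medians were 5.11 and 4.87. Normalized ChIP tags per peak had medians of 13.4 with melatonin and 13.6 untreated, the same as those of the whole lists. Both lie just above the window limits of 12.7 and 12.9, which hold the medians of called peaks in place. They therefore cannot show whether the signal at Prkg1 differed, and the difference described here is in the number of called peaks.

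Input was low at every member. Per kb, the melatonin peaks of Prkg1 had 1.84 to 3.24 normalized input tags and the untreated ones 1.21 to 4.17, with medians of 2.43 and 2.75. Tags spread evenly over the caller's genome size would give 5 normalized tags per kb. All 9 melatonin and all 21 untreated peaks lay under that value, as did 100% of both whole lists after rounding. The peaks of Prkg1 held at most 13.8 ChIP tags per kb with melatonin and 17.8 untreated. With so few, a peak reaches the required fold of 4 only if its input is under 5, so this result was fixed by the caller's limits. The medians of the whole lists, 2.43 and 2.65, were low as well, so low input was not particular to Prkg1. How far low input decided which windows passed the fold of 4 was not tested.

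**Figure D2:**
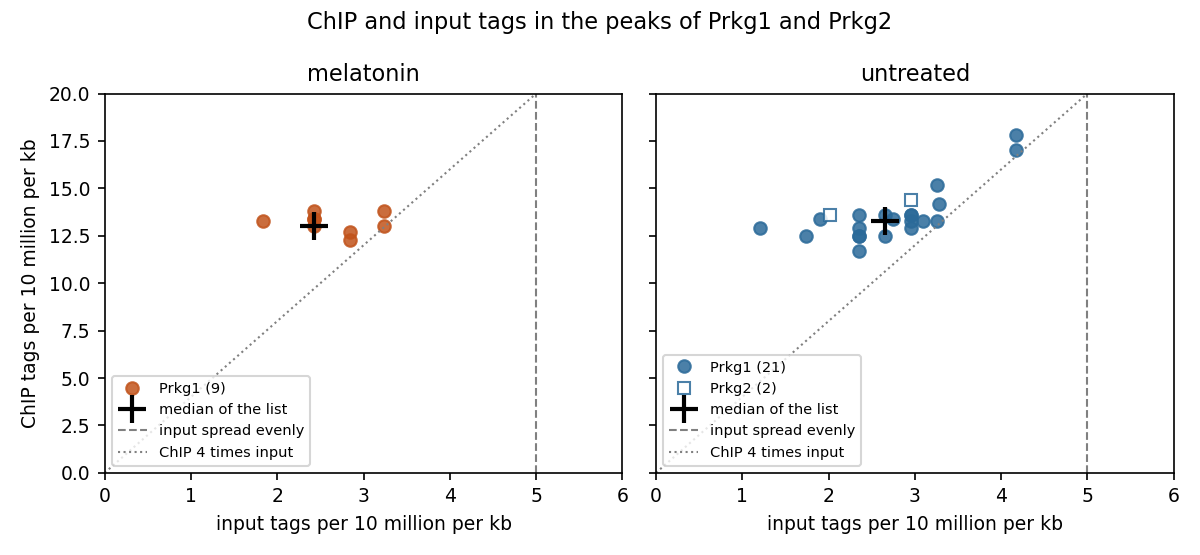
Normalized ChIP tags per kb (y axis) against normalized input tags per kb (x axis), both per 10000000 total tags, for each peak of Prkg1 and Prkg2, with melatonin on the left and untreated on the right. The members gather around the median of their own list (cross), all left of the 5 input tags that an even spread would give (dashed line) and on or above the line of ChIP at 4 times input (dotted).

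The density of peaks in Prkg1 stood above that of its chromosome in both libraries. Since the gene was chosen by its peaks in these lists, the intervals below cannot test this. The Poisson interval lay above the chromosome's density in the untreated library and included it with melatonin. The body held 5.83 peaks per Mb with melatonin (Poisson interval 2.34 to 12) and 15.8 untreated (9.53 to 24.7). Chromosome 19 held 3.16 and 2.99 per Mb. The median gap went the other way with melatonin, at 133 kb in the body against 69.4 kb over the chromosome. Untreated, it was 59.8 kb against 86.8 kb. Melatonin peaks made up 26.9% of the peaks in the body (exact binomial interval 11.6 to 47.8%), 51.5% over chromosome 19 and 47.9% over all chromosomes. For each untreated peak in the body there were 0.368 melatonin peaks, and for each on chromosome 19 there were 1.06. The sequence beside the gene did not show the untreated excess alike: the 1 Mb above it, upstream of the starts, held 7 melatonin and 4 untreated peaks, and the 1 Mb below it held 3 and 5. The whole lists' densities, 2.93 per Mb with melatonin and 3.18 untreated, were close to each other.

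Set beside other long genes, Prkg1 was near the end of the order in its difference in peaks, and less so per Mb. Of 227 protein-coding genes of 500 kb or more, 12, Prkg1 included, had at least 15.8 untreated peaks per Mb, and 37 had at least 5.83 melatonin peaks per Mb. Its difference of -12 peaks, melatonin minus untreated, was matched or passed by 1 other of the 227, Pard3b, a cell polarity gene with 16 melatonin and 31 untreated peaks. A count of peaks favours long genes, and per Mb the difference of Prkg1, -9.99, was passed by 4 others. These were Cpq (9.78 melatonin and 27.4 untreated peaks per Mb), Pard3b (15.9 and 30.9), Lrba (8.94 and 21.5) and Sugct (11.9 and 22.7). The median difference in peaks over the 227 genes was 0, with more melatonin peaks in 50, more untreated peaks in 64 and equal numbers in 113. Since Prkg1 was picked for its peaks out of many genes, a place near the end of this order was given by the choice. On chromosome 19, 5 other genes reach this length. Of these, Trpm3, a cation channel gene, had 6 melatonin and 3 untreated peaks, Atrnl1 had 9 and 1, and Hpse2, Sorcs1 and Sorcs3 had none, so the long genes of this chromosome did not share one direction.

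**Figure D3:**
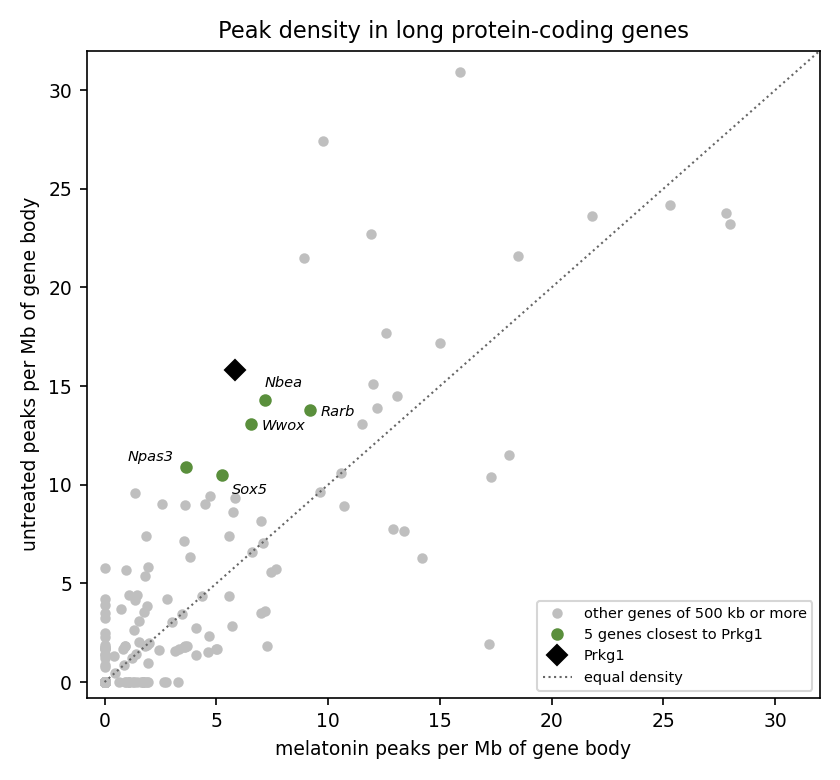
Peaks per Mb of gene body with melatonin (x axis) and untreated (y axis) for the 227 protein-coding genes of 500 kb or more, each point a gene. Prkg1 (diamond) lies at 5.83 and 15.8, well above the line of equal density, with the 5 genes closest to it in green.

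The genes most like Prkg1 in these densities, by straight-line distance over the 2 libraries, were Nbea, Wwox, Rarb, Npas3 and Sox5. Nbea, which encodes the scaffold protein neurobeachin, had 7.16 melatonin and 14.3 untreated peaks per Mb, at a distance of 2.01 per Mb. Wwox, an oxidoreductase gene at a common fragile site, had 6.57 and 13.1, at 2.78. Rarb, a retinoic acid receptor gene, had 9.21 and 13.8, at 3.93. Npas3, a neuronal transcription factor gene, had 3.64 and 10.9, and the cartilage transcription factor gene Sox5 had 5.24 and 10.5, both at 5.37. Each rests on 3 to 6 melatonin and 8 to 12 untreated peaks.

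Other annotated genes inside or beside Prkg1 were mostly free of peaks. They are short, from 0.516 to 13.6 kb. Most genes have no body peak: 5.54% of all protein-coding genes had one with melatonin and 5.27% untreated. Cstf2t, a polyadenylation factor gene that lies within Prkg1 at 31082841 to 31086592, had no peak, the nearest being 45.6 kb away with melatonin and 38.2 kb untreated. The long noncoding RNA gene Gm41834, at 31128783 to 31137532, contained 1 untreated peak, at 31133497 to 31134497 (12.9 normalized tags, fold 4.36), and no melatonin peak. Dkk1, which encodes a secreted inhibitor of Wnt signalling that restrains bone formation, lies past the 3′ end of Prkg1 at 30545876 to 30549496. It had no peak, the nearest being 166 kb away with melatonin and 36.4 kb untreated. That untreated peak, at 30508520 to 30509520 (12.5 normalized tags, fold 5.29), and its neighbour at 30499875 to 30500875 (13.6 tags, fold 5.13) were the members 55 and 63.6 kb outside Prkg1. The first peaks beyond the 100 kb limit lay 185 kb below and 201 kb above Prkg1 with melatonin, at 13 and 15.5 normalized tags. In the untreated list they lay 411 kb below and 308 kb above, at 13.6 and 12.5 tags.

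Prkg2 had no peak in its body in either library. It spans 108 kb of chromosome 5, from 98929773 to 99037375. A body without a peak is common: a melatonin peak overlapped the body of 5.54% of protein-coding genes, and an untreated one that of 5.27%. With the 100 kb flanks, Prkg2 had 0 melatonin and 2 untreated peaks, where the same reach held a melatonin peak at 29.9% of protein-coding genes and an untreated one at 26.7%. The counts of 0 allow up to 3.69 peaks by the 95% Poisson interval. With 0 melatonin peaks in this reach, neither flank peak could overlap one, where 5.6% of the whole untreated list did.

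The untreated peaks beside Prkg2 lay on either side of the gene. The first, at 98899011 to 98900624, was 29.1 kb below it and 1613 bp wide, the widest of all 32 members. It held 22 normalized ChIP and 3.26 normalized input tags (fold 6.76, p = 3.99e-15 in the authors' list), the most ChIP tags of any member, at rank 350 of 8361. Per kb it held 13.6 ChIP tags, near the list's median of 13.3. It was also the nearest untreated peak to Bmp3, a bone morphogenetic protein gene at 98854415 to 98884053, which it missed by 15 kb. The other, at 99090052 to 99091052, lay 52.7 kb above Prkg2 and held 14.4 ChIP and 2.95 input tags (fold 4.87). The nearest melatonin peak, at 98816266 to 98817266, was just outside the limit, 113 kb below Prkg2 and 37.1 kb from Bmp3, with 13.4 normalized ChIP tags and a fold of 8.26. The next untreated peak outside lay 170 kb above, with 18.2 normalized tags.

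The lists held 59 other genes, which make, bind, export or break down cGMP, act beside its kinases, or encode the cAMP-dependent kinase. This last group, of 7 genes, belongs to another pathway. Of the 59, 12 had a melatonin peak in the body and 9 an untreated one. These shares, 20.3% and 15.3%, stand beside 5.54% and 5.27% of all protein-coding genes, but the listed genes were longer, at a median of 58.3 kb against 17.3 kb, and the lists were drawn up with results of these data known. With 100 kb flanks the counts were 31 and 27, or 52.5% and 45.8%, against 29.9% and 26.7%. Flanks of neighbouring genes such as Nppa and Nppb share peaks, so these counts are not independent.

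Upstream of the kinases, none of the 3 nitric oxide synthase genes, 4 soluble guanylyl cyclase subunit genes, 3 natriuretic peptide genes or 7 receptor genes had a peak in its body in either library, where 5.54% of all protein-coding genes had one with melatonin and 5.27% untreated, a share at which few or none of so small a number would have one. Within 100 kb, the natriuretic peptide genes Nppa, Nppb and Nppc had a melatonin peak in 3 of 3 and an untreated peak in 0 of 3. The same reach held one at 29.9% and 26.7% of all protein-coding genes. Nppa and Nppb are neighbours and share their 1 melatonin peak, 68.8 and 83.6 kb away, so the 3 genes are not independent. Nppc, whose product CNP drives cartilage growth through the receptor encoded by Npr2, had 2 melatonin peaks in that reach, the nearer at 19.2 kb, and its nearest untreated peak lay 115 kb away. Of the 7 receptor genes, 3 had a melatonin peak within 100 kb and 4 an untreated one (42.9% and 57.1%, against the same 29.9% and 26.7%). Npr2 had 1 melatonin peak, 25.5 kb away, and 0 untreated peaks, Npr3, the clearance receptor gene, had 1 and 0, and Npr1, the receptor gene for the heart peptides, had 4 and 1. Gucy2c, the gene of the intestinal guanylin receptor, Gucy2e and Gucy2g each had 0 and 1. Nos2, the inducible synthase gene, had 2 and 0, and Nos3, the endothelial one, 0 and 1.

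Among enzymes that degrade cGMP, 6 of 13 phosphodiesterase genes had a peak in the body in each library, with 11 peaks each. These 46.2% stand beside 5.54% and 5.27% of all protein-coding genes, but the median length of the list was 123 kb. With 100 kb flanks, 7 of 13 had a peak in each library, or 53.8%, against 29.9% and 26.7% of all protein-coding genes. They had 17 peaks with melatonin and 23 untreated, so the equal numbers of peaks hold for the bodies alone. Pde1a, a calcium-dependent phosphodiesterase gene of 362 kb, had 6 melatonin and 3 untreated peaks in its body, and 8 and 9 with the flanks. In the body its order was thus opposite to that of Prkg1, and with the flanks it was not. In the body, Pde3a had 1 and 3, Pde3b 1 and 2, and Pde5a, the target of sildenafil, 1 and 1. Other genes of this list with a body peak were Pde6a (1 and 1), Pde6b (1 and 0) and Pde6c (0 and 1), which serve photoreceptors.

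Among channels, exporters and partners, few genes had more than 1 peak in the body. Of 14 substrate and partner genes, 3 had a body peak in each library. These 21.4% stand beside 5.54% and 5.27% of all protein-coding genes, at a median length of 35.8 kb against 17.3 kb. With 100 kb flanks 9 had a melatonin peak and 8 an untreated one (64.3% and 57.1%, against 29.9% and 26.7%). Kcnma1, the BK potassium channel gene of 713 kb, had 2 melatonin and 3 untreated peaks in its body, and 8 and 4 with 100 kb flanks, which turns the order. Itpr1, the inositol trisphosphate receptor gene, and Mrvi1, which encodes the adaptor that joins that receptor to the type I kinase, had 1 and 1 each in the body. Of 6 cyclic nucleotide gated channel genes, Cnga1 had 1 melatonin and 0 untreated peaks in its body, as had 1 of 2 exporter genes, Abcc4. With 100 kb flanks, 1 of the 6 channel genes had a melatonin peak and 3 an untreated one (16.7% and 50%, against 29.9% and 26.7%). Of 7 subunit genes of the cAMP-dependent kinase, the closest relative of the cGMP kinases, Prkar2b alone had a body peak, with 1 and 0. These 14.3% and 0% stand beside 5.54% and 5.27% of all protein-coding genes. With 100 kb flanks, 5 of the 7 had a melatonin peak and 3 an untreated one (71.4% and 42.9%, against 29.9% and 26.7%). Prkar2b had 2 and 2 with the flanks. Of the listed genes with a body peak, Prkg1 and Kcnma1 are the ones longer than 500 kb.

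**Figure D4:**
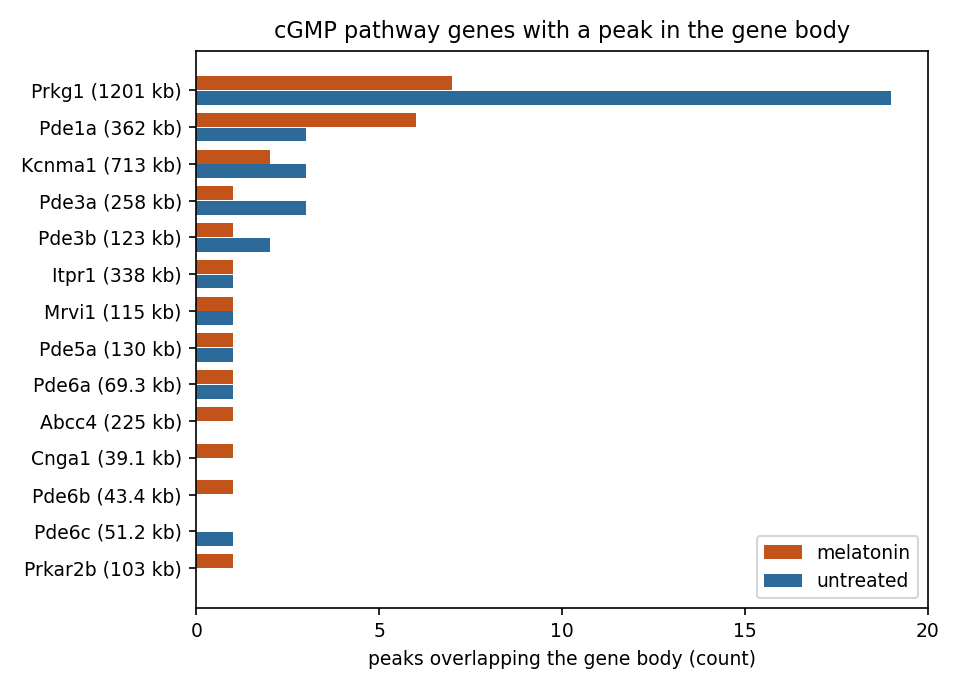
Number of peaks overlapping the gene body (x axis) for each listed gene with at least 1 such peak, melatonin above untreated, with the gene's length in kb beside its name. The genes are of the cGMP pathway except Prkar2b, of the cAMP-dependent kinase. Prkg1 has 7 and 19 peaks, and the next gene, Pde1a, has 6 and 3.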

How the data were processed

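Peaks of H3K36me2 were deposited for 2 ChIP libraries, melatonin and untreated, each called by the authors with HOMER findPeaks against 1 input, per the file headers, in windows of 1000 bp joined into regions, with a window p of 0.001, a fold over input of 4 and a p over input of 1e-04. The submitters' processing notes name BWA 0.7.13, Picard 1.126 and MACS2 2.1.0; the HOMER version was not stated there. The deposited values are a signal (normalized tags per 10000000, and ChIP and input tags scaled to the smaller library), a score, a ratio (fold over input), a p-value without adjustment and the region size. Normalized input tags, per 10000000 total tags, were computed from the scaled columns, whose library total in the melatonin list was taken as 12338275, from the ratio of its ChIP columns. The notes name build mm39, yet peaks on chromosomes 3 and 7 end at 159805034 and 145328623, past the ends of those chromosomes there. The share of midpoints in protein-coding genes was lowest with no shift against GRCm38.p6 (29.1% with melatonin and 27.8% untreated, against 33.7% and 32.6% after 20 kb), so GRCm38 was used.

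Peaks were counted by 1 bp of overlap, and densities by midpoints, with Python 3.11.15, pandas 2.3.3 and SciPy 1.17.1. Counting was tested on simulated data. The members and gene lists were chosen with earlier results of these data known. Named are Prkg1, Prkg2, protein-coding genes in their bodies or 100 kb flanks, up to 4 genes per list with the most body peaks, and the 5 long genes most like Prkg1; other genes were named after their values were seen. Peaks given in full are the 5 with most tags per library in Prkg1 and all of Prkg2; further ones were chosen for position. With 1 library per condition, no test was made. Alternatives were other flanks, overlap rules and limits on fold or p.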

Additional observations from a re-analysis of the deposited data

How the results depend on the processing

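No paired analysis was possible because each condition had 1 ChIP library, and no library could be left out. Of 45 alternative values for 9 results, 27 stayed equal to the value reported or within 1.5 times of it. For Prkg1, all 10 settings, the main one included, gave more untreated than melatonin peaks. They reuse the same chosen peaks, so their agreement is not independent support. The limit of 1e-05 on p removed no peak of Prkg1. With a fold of at least 6 there were 1 with melatonin and 3 untreated, and with each list cut to its 3849 peaks of lowest p 1 and 10. That melatonin value rested on ties in p: 4 more peaks of Prkg1 had the limiting p of 1.24e-07, and with ties kept, an alternative added after seeing the data, the counts were 5 and 10. For Prkg2, 200 kb flanks gave 1 and 4 peaks. The gene body alone and 10 kb flanks gave 0 untreated peaks. A fold of at least 6, the lowest p, and ties kept each gave 1 untreated peak. Moving the gene by 25 kb down the chromosome, added because of the doubt over the build, gave 1 melatonin peak at Prkg2 and moved no count of Prkg1. Of the melatonin peaks of Prkg1, 1 met an untreated peak when gaps of up to 1 kb or 5 kb were allowed. Body peaks in place of 100 kb flanks, also added later, gave 12 and 9 of the listed genes other than the cGMP kinases. With about 19 tags in a typical melatonin peak and 18 in an untreated one, depth limits these calls: a few tags decide whether a window passes.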
